A study of Mus musculus with 24 samples.

Results

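*Nfil3* and the genes of the PAR bZIP transcription factors *Dbp*, *Tef* and *Hlf* were followed in dorsal root ganglia (DRGs) of *Nfil3* knockout (KO) and wildtype (WT) mice after sciatic nerve lesion. The probes were chosen by gene name, which gave 8 of the 41174 non-control probes on the array and 4 of its 27398 gene names, namely 2 probes for *Nfil3*, 1 for *Dbp*, 4 for *Tef* and 1 for *Hlf*. RNA came from L4 and L5 DRGs of adult male C57BL/6J mice in 6 groups of 4 samples. WT control and KO control DRGs were from the non-injured side, and WT and KO DRGs at day 2 and day 5 were from the side on which the sciatic nerve had been transected and its ends sutured together. KO mice were *Nfil3*-/- in all tissues, made with a Cre driven by a CMV promoter that removed a loxP-flanked part of the gene, and WT mice were their *Nfil3*+/+ littermates. All groups therefore came from adult mice with a lesion on 1 side, and neither the time of day of dissection nor the animal behind each control sample is given in the sources used here.

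NFIL3 and the PAR bZIP proteins DBP, TEF and HLF are basic leucine zipper factors that bind the same DNA element, the D-box. NFIL3 represses from this element, whereas DBP, TEF and HLF activate, and in many tissues they form a loop of the circadian clock in which *Dbp* is driven through E-boxes by CLOCK and BMAL1, and in which *Per* and *Nr1d* genes carry D-boxes. In DRGs *Nfil3* is known as a gene that axon injury induces.

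The probe sequences are shown because they give the stretches of RNA that were measured and because the genotype check rests on the *Nfil3* probes. Each probe has 60 bases, its position is the one that the array design lists for mm9, and capitals mark a polyadenylation signal. The *Nfil3* probe with the brighter mean over WT samples lies at chr13:53062585-53062644 on the minus strand and its last 30 bases hold AATAAA, and the other lies at chr13:53062869-53062928 on the same strand. The *Dbp* probe lies at chr7:52965265-52965324 on the plus strand, the *Tef* probe with the highest mean at chr15:81656928-81656987 on the plus strand and the *Hlf* probe at chr11:90199978-90200037 on the minus strand. Exon and UTR boundaries in this build were not analysed here.
Nfil3 A_52_P500027, last 30 bases: tgttgccagtttcAATAAAggattggtggc
Nfil3 A_51_P111492, first 30 bases: aatagcaaacttatctgcagaggtggtctc
Dbp A_51_P180492, first 30 bases: tgccagggcagagtcctgttccttgctcag
Tef A_52_P485573, first 30 bases: aaattttctagaaaaaggcaaagatgattt
Hlf A_51_P134228, first 30 bases: aggttgacctcggtgctatgtgtacggctt

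All values are normalised intensities on the log2 scale, and differences are log2 differences from 1 limma model over the 24 samples, with Benjamini-Hochberg adjusted p-values over all 41174 probes and a threshold of 0.05. Between 54.5% and 72.3% of probes in a sample were well above background, and no spot was saturated. Each array carried a different sample in its Cy3 and its Cy5 channel, and 3 of 4 lesion markers differed among control samples by what shared their array. *Sprr1a*, a gene induced by axon injury, lay between 5.48 and 6.12 in the 4 control samples that shared an array with another control and between 8.15 and 11.68 in the 4 that shared it with a lesion sample, while lesion samples began at 12.60. *Atf3*, an injury-induced transcription factor gene, gave 7.25 to 7.69 against 9.04 to 9.98 and *Gal* 10.96 to 11.13 against 11.24 to 12.63, whereas for *Jun* the ranges overlapped (10.02 to 10.14 against 9.98 to 10.39). The part of array sharing in these values was not tested. The library labelled KO control replicate 4 is one of the latter, with *Sprr1a* at 11.43, and another of its label fields gives day 5. It was grouped by its title, and results in KO control DRGs are given with and without it where it moves them. The tissue label says DRG neurons, but whole ganglia were dissected, and markers of macrophages were well above background in all 24 samples. In such bulk RNA, fewer cells of a type and less RNA per cell cannot be told apart.

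*Nfil3* rose after lesion in WT mice and was low in KO mice at every time point. The brighter probe gave 8.44, 8.64, 8.51 and 9.01 in the 4 WT control samples, 10.45, 10.76, 10.34 and 10.54 at day 2, and 10.64, 10.95, 10.98 and 11.09 at day 5. Neither lesion group overlapped the controls. The second probe gave 7.91, 7.97, 7.41 and 7.91 in WT control samples, 9.64, 9.78, 9.42 and 9.76 at day 2, and 10.36, 10.02, 10.42 and 10.11 at day 5. By the second probe *Nfil3* rose by 1.85 (SE 0.56, adjusted p = 0.0385) at day 2 and by 2.43 (SE 0.56, adjusted p = 0.00523) at day 5, comparisons in which 9.99% and 12.9% of all probes passed. The day 2 call was lost when any one WT control or WT day 2 sample was left out (adjusted p from 0.063 to 0.104). The brighter probe gave similar differences of 1.87 (SE 0.81) and 2.26 (SE 0.81), with adjusted p = 0.172 and 0.076, in the fit that pools the spread of WT and KO samples. Its SD was 0.18 to 0.25 within WT groups, and its day 5 difference passed when the library labelled KO control replicate 4 was left out (2.26, SE 0.62, adjusted p = 0.0198). In a fit of the 12 WT samples alone its adjusted p was 3.42e-05 at day 2 and 6.23e-06 at day 5. Day 5 minus day 2 in WT did not pass for either probe (0.39 ± 0.81, adjusted p = 0.943, and 0.58 ± 0.56, adjusted p = 0.837, difference ± SE).

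In KO samples the brighter *Nfil3* probe gave 2.94, 3.80, 4.37 and 7.59 in control DRGs, 5.30, 4.14, 3.03 and 6.23 at day 2, and 5.81, 3.40, 5.66 and 2.82 at day 5. All 12 values lay below all WT values, but they were spread far more widely. Over the 3 time points KO minus WT was -5.44 (SE 0.47, adjusted p = 5.88e-06) for the brighter probe and -4.74 (SE 0.32, adjusted p = 1.78e-07) for the second. The coding sequence lies in the exon drawn as removed in the knockout scheme, and the position of the probes relative to the loxP sites is not given in the sources used here.

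The spread among KO samples went with what shared their array. The 4 KO samples on an array with a WT lesion sample lay between 5.30 and 6.23 by the brighter probe and were well above background, the 2 with a WT control sample lay at 3.80 and 4.37, and 5 with another KO sample lay between 2.82 and 4.14. None of these last 7 were well above background. The remaining one, the library labelled KO control replicate 4, had a KO day 5 sample as its partner, which itself gave 3.40, yet it gave 7.59 and 6.70 by the 2 probes. On the linear scale this was 47.3% and 46.2% of the WT control mean. Without it, KO minus WT in control DRGs went from -3.98 (adjusted p = 1.00) to -4.95 (SE 0.67, adjusted p = 0.0123) by the brighter probe and from -3.22 (adjusted p = 0.258) to -3.93 (adjusted p = 0.00151) by the second. For the other 3 KO controls, the WT to KO ratio was 28.4-fold by the brighter probe and 15.2-fold by the second. Each ratio divides the mean WT signal by a reference. The reference is the lowest signal well above background on each KO array or the probe's own value there, whichever is higher. By the second probe it equalled the measured KO control mean (3.87). Against the 2 KO samples per time point that had a KO partner, the ratios were 91.1-fold and 50.3-fold at day 2. At day 5 they were 179-fold and 112-fold, in the same order of probes. These ratios are not lower bounds, because the reference is not a detection limit. It averaged 4.01 at day 2 by the brighter probe, yet *Cd3g* reached 4.59 at KO day 2 without being well above background. The difference also shrank without background correction, from -3.98 to -2.41 in control DRGs by the brighter probe with all KO controls kept.

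**Figure D1:**
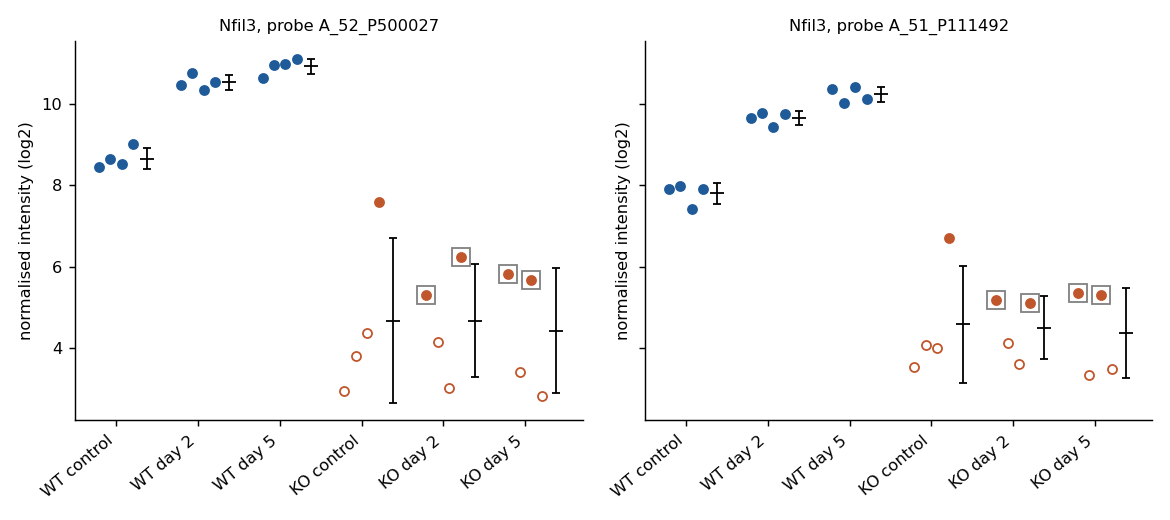
Normalised intensity (log2, y axis) of the 2 *Nfil3* probes in each sample by group (x axis); filled points are well above background, open points are not, gray squares mark KO samples that shared an array with a WT lesion sample, and bars give mean ± SD (n = 4). All WT lesion samples lie above all WT controls, and the library labelled KO control replicate 4 is the highest KO sample at 7.59 and 6.70.

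*Dbp*, an activator at D-boxes and a direct output of the clock, rose at day 2 and was back at the control level at day 5. WT control samples gave 10.60, 10.95, 11.19 and 10.39, WT day 2 samples 12.12, 12.15, 12.87 and 11.79, and WT day 5 samples 10.84, 10.63, 10.84 and 10.82. The day 2 group lay entirely above both other WT groups, which overlapped each other. KO control samples gave 10.27, 11.46, 10.72 and 11.03, KO day 2 samples 12.12, 11.63, 11.33 and 11.75, and KO day 5 samples 10.32, 11.54, 10.69 and 11.42. In KO mice the day 2 group had the highest mean but overlapped both others. Signal was well above background in each of the 24 samples.

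Averaged over WT and KO, *Dbp* was higher at day 2 by 1.14 (SE 0.20, adjusted p = 3.36e-04). In that comparison 21.2% of all probes passed in one direction or the other. At day 5 the difference from control was 0.06 (95% interval -0.36 to 0.49, adjusted p = 0.889), and day 5 minus day 2 was -1.08 (SE 0.20, adjusted p = 0.00384), a comparison in which 3.08% of all probes passed. Both lesion comparisons share the control samples. The rise was 1.45 (SE 0.29, adjusted p = 0.00225) in WT and 0.84 (SE 0.29, adjusted p = 0.0689) in KO mice. The difference between these 2 changes was -0.61 (95% interval -1.46 to 0.24, unadjusted p = 0.147, adjusted p = 1.00), so a smaller rise in KO mice was not shown. KO day 2 minus control passed the threshold when KO control replicate 2 (1.03, adjusted p = 0.035) or KO day 2 replicate 3 (0.96, adjusted p = 0.0425) was left out. Within slides 2 and 3, day 2 minus control was 1.37 and 1.35 in WT, and 1.11 and 0.82 averaged over genotypes. In KO mice, slide 2 held 12.12 and 11.63 at day 2 beside 11.03 in control (replicate 4). Slide 3 held 11.75 at day 2 beside 11.46 in control, a smaller gap than in WT. Slide 1 held no WT day 2 sample, and its 1 KO day 2 sample lay 0.83 above the KO controls there. The 4 day 2 samples that shared an array with another day 2 sample gave 11.75 to 12.87, the 2 with a day 5 partner 11.63 and 12.12, and the 2 with a control partner 11.33 and 11.79.

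*Tef*, the second activator, did not follow *Dbp*. It was lower at day 5, and its level at day 2 was close to that of controls. The probe with the highest mean gave 10.50, 10.45, 10.54 and 10.34 in WT control samples, 10.45, 10.54, 10.60 and 10.29 at day 2, and 10.07, 10.11, 10.03 and 10.16 at day 5. The KO samples gave 10.44, 10.74, 10.27 and 10.32, then 10.22, 10.23, 10.32 and 10.44, then 10.01, 10.21, 9.99 and 10.18. In both genotypes every day 5 sample lay below every control and every day 2 sample. Averaged over genotypes, day 5 minus control was -0.35 (SE 0.07, adjusted p = 7.92e-04) and day 2 minus control was -0.06 (95% interval -0.21 to 0.08, adjusted p = 0.606). Day 5 minus day 2 was -0.29 (adjusted p = 0.026), a call lost with array as a random block (-0.24, adjusted p = 0.058) and without any one of WT day 2 replicate 2, WT day 5 replicates 1 and 3 and KO day 5 replicates 1 and 3 (adjusted p from 0.0531 to 0.0644).

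The other *Tef* probes gave the same picture for day 5. Averaged over genotypes their day 5 minus control differences were -0.43 (adjusted p = 0.00304), -0.41 (adjusted p = 0.00243) and -0.44 (adjusted p = 0.0674), so 3 of the 4 *Tef* probes passed, and these were the only ones of the 6 PAR bZIP probes that did, against 22.2% of all probes. At day 2, averaged over genotypes, the 95% interval included 0 for each of the 4. In KO mice alone the last probe gave -0.59 at day 2 (95% interval -1.08 to -0.09, adjusted p = 0.127), against 0.15 in WT. Across the 24 samples the probes correlated with each other at r = 0.29 to 0.69 (Pearson, a description over samples that share arrays). The first of these 3 probes crosses an intron, since its 60 bases span 2106 bases of the genome (chr15:81651816-81653921 on the plus strand), and it is shown whole because it reads spliced *Tef* RNA.
Tef A_52_P173309: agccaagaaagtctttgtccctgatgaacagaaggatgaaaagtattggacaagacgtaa

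*Hlf*, the remaining activator, had no lesion change that could be told from its spread. WT control samples gave 7.29, 7.15, 7.35 and 7.67, WT day 2 samples 6.88, 7.63, 8.25 and 6.96, and WT day 5 samples 7.12, 7.07, 7.22 and 7.71. KO control samples gave 6.45, 8.0, 7.54 and 7.65, KO day 2 samples 7.44, 6.75, 6.86 and 7.77, and KO day 5 samples 6.67, 8.0, 6.99 and 7.69. All groups overlapped. Day 2 minus control, averaged over genotypes, was -0.07 (95% interval -0.59 to 0.45, adjusted p = 0.896) and day 5 minus control -0.08 (95% interval -0.60 to 0.44, adjusted p = 0.886). These intervals hold differences as large as that of *Tef* at day 5.

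**Figure D2:**
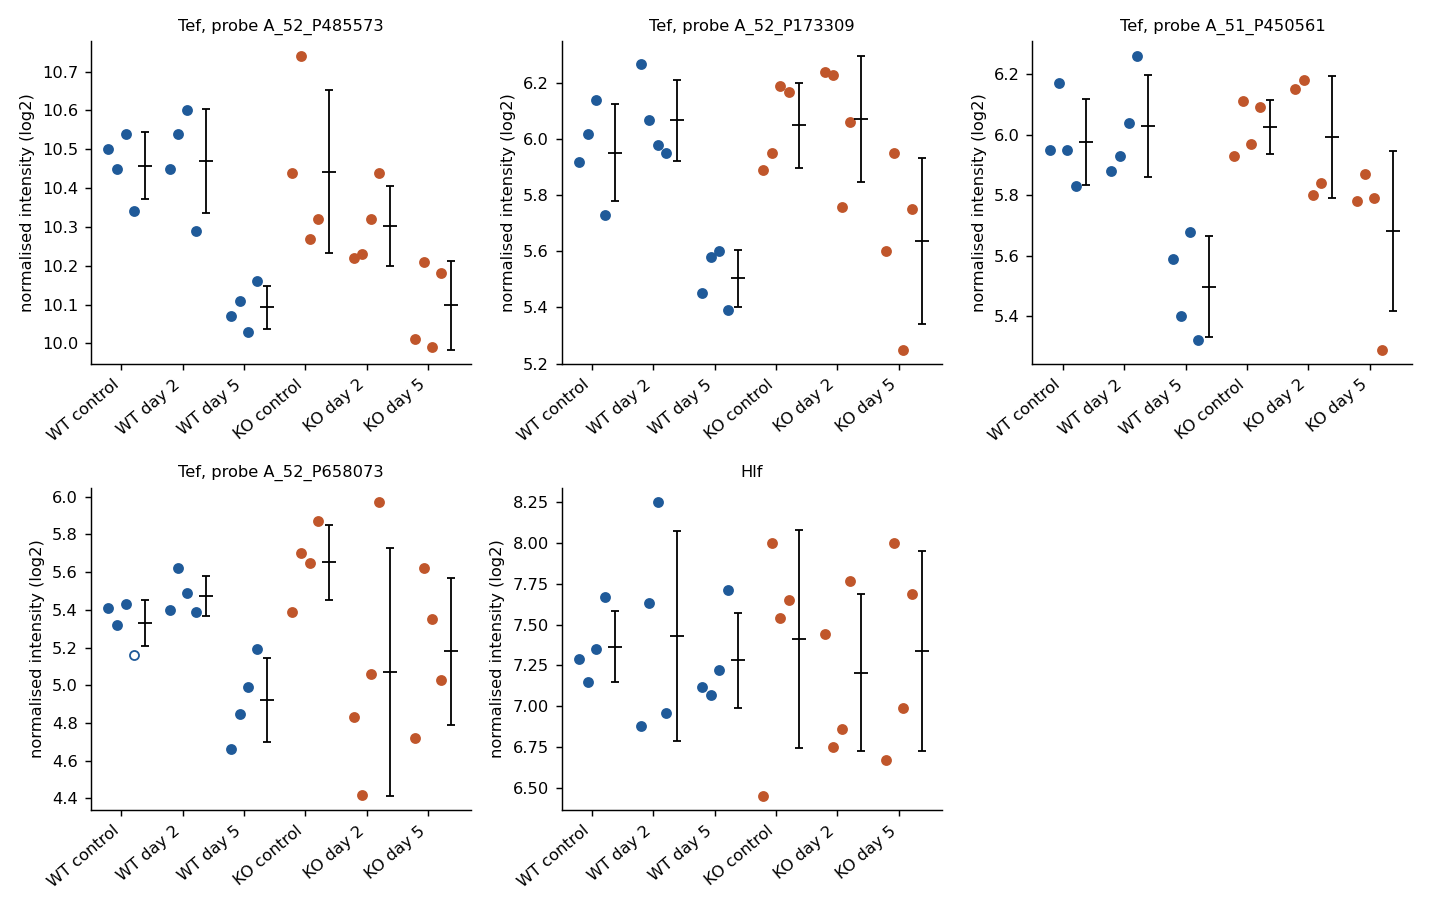
Normalised intensity (log2, y axis) of the 4 *Tef* probes and the *Hlf* probe in each sample by group (x axis); filled points are well above background, open points are not, and bars give mean ± SD (n = 4). *Tef* at day 5 is below the controls in both genotypes for probe A_52_P485573 (9.99 to 10.21 against 10.27 to 10.74), whereas the *Hlf* groups overlap.

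None of the 3 PAR bZIP genes passed the comparison of KO with WT. Over the 3 time points KO minus WT was -0.07 for *Dbp* (95% interval -0.42 to 0.27, adjusted p = 0.962), -0.06 for *Tef* by its brightest probe (-0.18 to 0.06, adjusted p = 0.941) and -0.04 for *Hlf* (-0.47 to 0.39, adjusted p = 0.986). With 12 samples per genotype, differences within these intervals were not excluded. Larger ones could still miss the threshold after adjustment over 41174 probes. The other 3 *Tef* probes gave 0.06 to 0.08. Of the 8 probes, the 2 of *Nfil3* were the only ones to pass in this comparison, in which 0.00729% of all probes (3 of 41174) passed. For the interaction of lesion and genotype no probe of the 4 genes passed, nor did any other probe (0% of 41174). By the F test over both time points the adjusted p was 0.99998 for each of the 8. The unadjusted p was 0.0992 and 0.00907 for *Nfil3*, 0.179 for *Dbp*, 0.82 for *Hlf* and 0.0771 to 0.81 for *Tef*. The library labelled KO control replicate 4 was kept in this test. The paper differs here, since it reports genes, *Nfil3* among them, whose lesion response differed between genotypes. It used a SAM time course, which was not run here, and a limma interaction analysis.

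**Figure D3:**
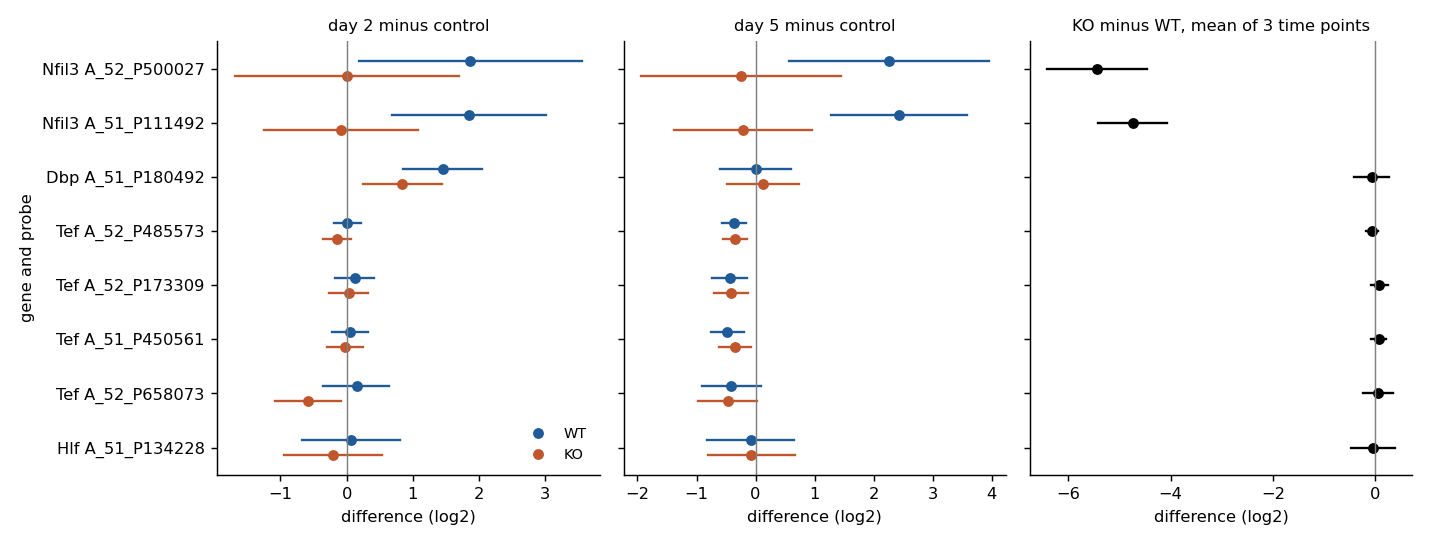
Log2 differences (x axis) with 95% intervals for the 8 probes (y axis): day 2 minus control and day 5 minus control in WT and KO mice, and KO minus WT averaged over the 3 time points. *Dbp* lies above 0 at day 2 (1.45 in WT, 0.84 in KO), *Tef* below 0 at day 5, and *Nfil3* alone is far from 0 in KO minus WT (-5.44 and -4.74).

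Single clock genes around the D-box loop differed between lesion and control DRGs. As a list they passed about as often as all genes at day 2, and no list was tested as a set. The time of day of dissection is not given in the sources used here. Its part in the differences of these genes, of the E-box factors below and of *Dbp* and *Tef* was not tested. Among 8 clock genes known to carry D-boxes, 2 rose at day 2 averaged over genotypes and 6 did not pass, with a median difference of 0.32 against -0.015 over all genes, of which 22.1% passed. *Per1*, a repressor of CLOCK and BMAL1, rose by 0.96 (SE 0.13, adjusted p = 1.06e-05), from 7.03, 7.03, 7.13 and 7.29 in WT controls to 7.90, 8.12, 8.25 and 8.30 at day 2. *Per3*, a related gene, rose by 0.56 (SE 0.13, adjusted p = 0.00399) and was lower again at day 5 by -0.77 relative to day 2 (adjusted p = 0.00161), which 3.28% of all genes passed. *Nr1d2*, which encodes the repressor REV-ERB beta, was lower at day 5 by -0.51 (adjusted p = 0.00188) with -0.04 at day 2, and *Rora*, an activator at the same sites as REV-ERB, was higher at day 5 by 0.42 (adjusted p = 0.00612). *Per1* was also higher at day 5, by 0.66 (adjusted p = 5.32e-04), so 3 of 8 passed at day 5, beside 23.2% of all genes. The other *Rora* probes gave 0.39 (adjusted p = 0.0156) and 0.10 (adjusted p = 0.856) at day 5, and of 2 *Per2* probes the brighter gave -0.05 and the other -0.65 (adjusted p = 0.00612). *Rorb* did not rise above background in any of the 24 samples.

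Of the 6 factors that act at E-boxes, *Bhlhe41*, a repressor, rose by 1.09 (SE 0.11, adjusted p = 3.79e-07) at day 2 and 0.77 (adjusted p = 2.47e-05) at day 5. *Arntl*, which encodes BMAL1, fell at day 2 by 0.96 (SE 0.12, adjusted p = 6.21e-06) and was higher at day 5 than at day 2 by 1.29 (adjusted p = 2.56e-06). *Arntl* gave 6.42 to 7.18 in the 8 control samples, 5.30 to 6.14 in the 8 at day 2 and 6.82 to 7.39 in the 8 at day 5, so that day 2 lay apart from both other times in each genotype. Its partner *Clock* was at -0.05 at day 2 and -0.24 at day 5 (adjusted p = 0.0402) by its brightest probe, and the *Clock* probes disagreed, since another gave -0.34 at day 2 (adjusted p = 0.0324). Of the 6 factors 1 passed as higher and 1 as lower at each day, beside 22.1% of all genes at day 2 and 23.2% at day 5. With 9 of the 24 samples, each left out singly, only 1 of the 6 factors passed at day 5, and none of the other 3 *Clock* probes passed at day 5. *Bhlhe40* gave 0.31 at day 2 (adjusted p = 0.0541).

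Of 8 genes known in liver and other organs as outputs of PAR bZIP factors, *Nr1i3*, a nuclear receptor, rose by 0.70 at day 2 (adjusted p = 0.0112) and *Pdxk*, the kinase that activates vitamin B6, fell by 0.29 (adjusted p = 0.0136). The other *Pdxk* probes gave -0.14 and 0.05 at day 2 and did not pass. These 2 of 8 stand beside 22.1% of all genes that passed at day 2. None of the 8 passed at day 5, where 1 had an unadjusted p under the threshold and 23.2% of all genes passed. KO minus WT passed for none of the 22 genes in these lists, beside 0.0073% of all genes. Unadjusted p-values were 0.0473 for *Bhlhe41* (0.19, adjusted p = 0.941) and 0.0456 for *Cyp2a5* (0.58, adjusted p = 0.941), the latter well above background in only 4 samples.

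**Figure D4:**
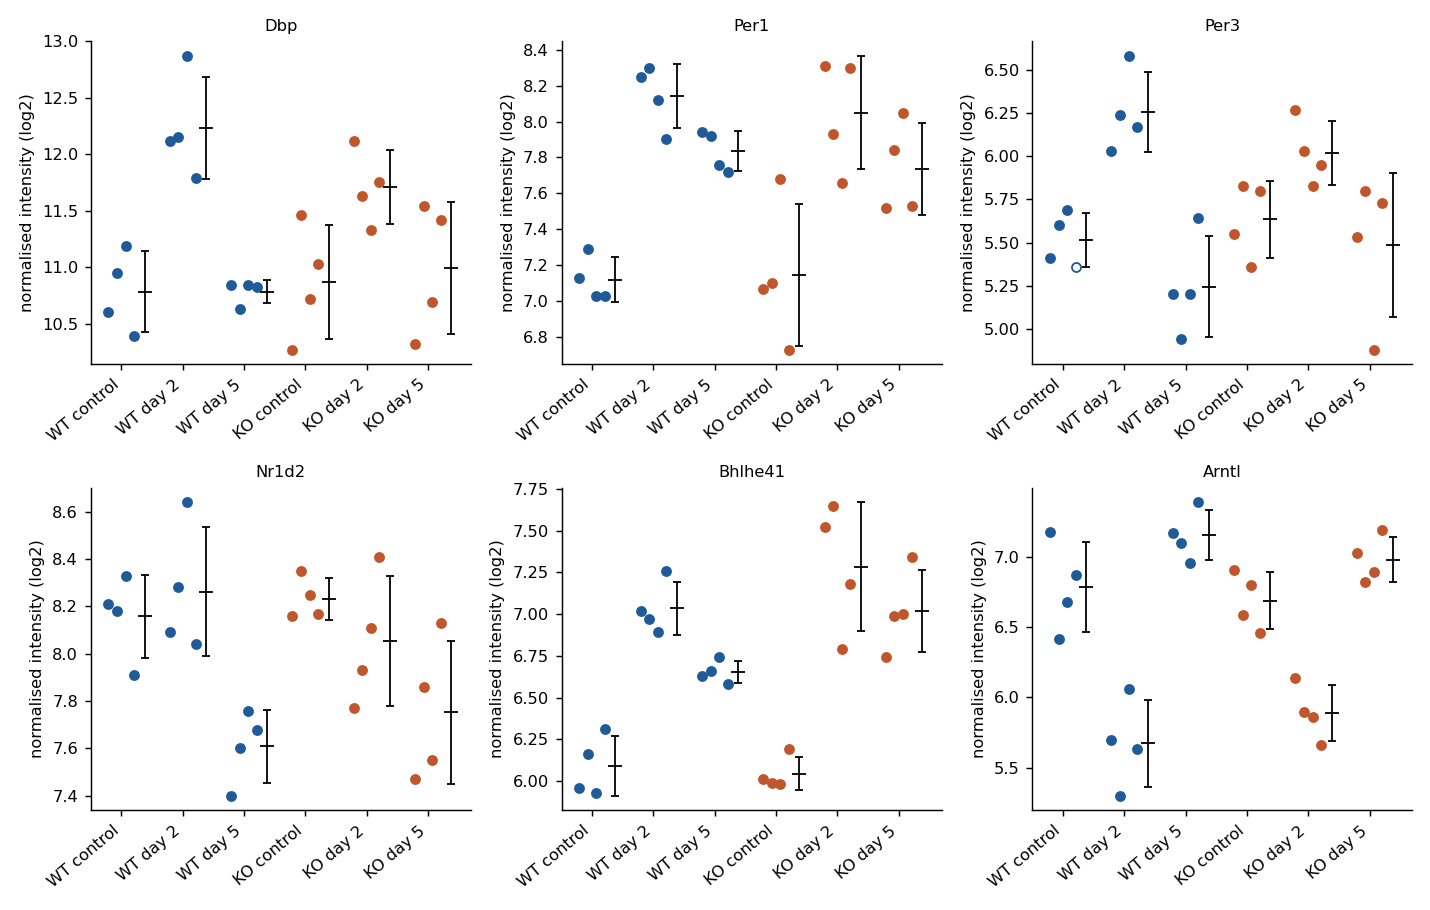
Normalised intensity (log2, y axis, separate scale per gene) of *Dbp* and 5 clock genes in each sample by group (x axis); filled points are well above background, open points are not, and bars give mean ± SD (n = 4). *Dbp*, *Per1*, *Per3* and *Bhlhe41* are highest and *Arntl* lowest at day 2 by group mean in both genotypes, and *Nr1d2* is lowest at day 5.

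Promoters of these genes were searched because the lists are named after DNA elements. RefSeq start sites in GRCm38.p6 with 250 bases before and 50 after were available for all 4 genes (5 promoters). The D-box letters TTATGTAA or TTACGTAA, on either strand, were in none of the 5, and they are in 0.938% and 0.119% of all 32851 promoters. The E-box letters CACGTG were in both *Tef* promoters, at chr15:81802546-81802551 and chr15:81811276-81811281 on the gene's strand, and in 7.15% of all. The promoters of *Nfil3*, *Dbp* and *Hlf* searched here did not hold them. The cAMP response element letters TGACGTCA were in that of *Hlf*, at chr11:90390919-90390926, and in 1.79% of all. Of 7 D-box clock genes with a promoter 1 had D-box letters, namely *Per3*, with TTATGTAA at chr4:151044863-151044870 and again at chr4:151044816-151044823. Of 7 output genes of PAR bZIP factors with a promoter none had them. Sequence outside these windows was not searched. The matches of *Tef*, *Hlf* and *Per3* are printed in capitals, each on the strand of its gene. A match describes the letters only and was not tested as a binding site.
Tef promoter 1: tgctgtggctcCACGTGctgcagctggcac
Tef promoter 2: acctggcccagCACGTGtctacatcgtttg
Hlf promoter: atcggcgcgcggtgcgggcccTGACGTCAc
Per3 promoter, upstream match: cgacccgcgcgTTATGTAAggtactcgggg
Per3 promoter, downstream match: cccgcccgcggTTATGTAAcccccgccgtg

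The genes most like each member over samples were listed among probes well above background in all samples used, 21525 to 21715 of them, by Pearson's r as a description. For *Nfil3*, over the 12 WT samples, they were *Nkain1* (r = 0.992), *Gal* (0.99), which encodes the injury-induced neuropeptide galanin, and *Wfdc3* (0.99). For *Dbp*, over 24 samples, they were the clock factor *Bhlhe40* (0.879), *Rasip1* (0.874), which encodes an endothelial Ras-interacting protein and lies 66.0 kb from *Dbp* on chromosome 7 in GRCm38.p6, and *Fam107a* (0.852). For *Tef* they were the clock gene *Nr1d2* (0.872), *Braf* (0.845) and *Plxna2* (0.826), a semaphorin receptor gene. For *Hlf* they were *Lamc1* (0.865), *Itgb4* (0.863) and *Mllt4* (0.847), of which *Lamc1* encodes a laminin chain and *Itgb4* a laminin receptor subunit found on Schwann cells. Deviations from the group means also went together among the 3 PAR bZIP genes, with r = 0.76 for *Dbp* and *Hlf*, 0.59 for *Dbp* and *Tef*, and 0.53 for *Tef* and *Hlf*. Slide was not taken out of these deviations. At KO day 5 slide 2 held *Dbp* at 11.54 and 11.42 and *Hlf* at 8.0 and 7.69. Slide 1 held *Dbp* at 10.32 and 10.69 and *Hlf* at 6.67 and 6.99. At WT day 2 the slides overlapped for both genes. The part of slide in these r values was not tested. For deviations of *Nfil3* by its brighter probe, also over 24 samples, r was -0.09 with *Dbp*, -0.35 with *Tef* and 0.11 with *Hlf*. The SD of this probe was 1.39 to 2.03 within KO groups and 0.18 to 0.25 within WT groups. These r values rest mostly on KO samples, where the gene is deleted, and do not show how intact *Nfil3* varied. Among the listed genes the r of deviations for *Dbp* ran from -0.44 with *Clock* to 0.91 with *Nr1d1*, a further REV-ERB gene.

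Markers of other cell types shifted with the lesion. Of 5 neuron markers 4 were lower at day 2, and at day 5 3 were lower and 1 higher, while 4 of 5 macrophage markers were higher at day 2 and all 5 at day 5, beside 22.1% and 23.2% of all genes that passed in either direction. The summed macrophage signal was 1300 to 2310 in WT controls, 2220 to 3670 at day 2 and 5530 to 6600 at day 5. Of 3 T cell markers none passed, and neither did any of 3 fibroblast markers. Among satellite glia markers 1 rose and 2 fell at day 2, and of 2 endothelium markers 1 rose. The part of these shifts in the changes of *Dbp* and *Tef* was not tested.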

How the data were processed

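RNA of 24 DRG samples was measured on 12 Agilent 4x44K arrays, 3 slides of 4, with 2 samples per group and dye. Per the file headers Agilent Feature Extraction 10.7.3.1 read the scans for the authors, and the deposited values are foreground and background intensity per spot, not normalized. The Edwards background correction and quantile normalization that the methods name were run here in limma 3.58.1 (R 4.3.3) on mean foreground and median background, outlier spots were left out (417 missing values), and spots of a probe were averaged on the log2 scale. Group means were estimated with lmFit and contrasts moderated with eBayes. The brightest probe stood for a gene in lists. Named are the 4 genes, list genes that passed or had an unadjusted p under 0.05 for KO minus WT, the 3 most similar genes per member, and markers. *Per2*, *Nr1d1* and *Rorb* fall outside this rule and were named after their values were seen. Members and lists were chosen with earlier results of these data known. The samples are independent replicates by the methods, without named animals, so p-values measure the spread between samples. The main model treats all samples as independent. Samples that shared an array were correlated, however, at 0.396 (consensus over probes in the fit with dye and array as a random block). Any pairing of control and lesion DRGs from the same mouse was not modelled. Alternatives covered the background, foreground, normalization, outlier and dim-probe filters, averaging of probes, dye, slide, array, replicate number, variance trend, each sample left out, and, chosen after seeing the data, array partners and WT samples alone. Scripts were tested on simulated data. 1 of the marker lists is not reported here. The number of arrays limits the precision. The SAMR, globaltest and motif enrichment analyses of the study were not run here.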

Additional observations from a re-analysis of the deposited data

Results flagged for a closer look

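In 3 of 48 group and probe combinations (6.25%) 1 sample lay far from the other 3 by Dixon's test, against about 1 in 20 that chance flags. These were *Nfil3* probe A_51_P111492 in WT control replicate 3 (7.41, the others 7.91 to 7.97), *Dbp* in WT day 5 replicate 2 (10.63, the others 10.82 to 10.84) and *Tef* probe A_51_P450561 in KO day 5 replicate 4 (5.29, the others 5.78 to 5.87).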

How the results depend on the processing

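The rise of *Dbp* at day 2 and its fall to day 5 and the lower *Tef* at day 5 by its 3 brightest probes, averaged over genotypes, passed the threshold under every alternative and with every sample left out in turn. With the replicate block, *Dbp* at day 2 was 1.14 and no call of the 4 genes changed. Whether replicate numbers pair the samples was not settled, since numbers 1 and 2 were all Cy3 and 3 and 4 all Cy5. Of 60 same-number pairs 13 correlated above 0.1, and their median r was 0.07 against 0.05 for other pairs of the same dye. Of 24 samples 11 correlated best with their own number, and no chance value is given here. With the replicate block 9190 probes were called at day 2 in place of 8716.

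The brighter *Nfil3* probe passed in WT without background correction (1.75 at day 2, 2.12 at day 5), with normexp (1.68 and 2.06) and with WT samples only (1.87 and 2.26). At day 5 it also passed with dim probes filtered (2.26), probes averaged (2.34) or an eBayes trend (2.26), and it ranged from 2.19 to 2.38 with single samples left out, passing without KO control replicate 4 (2.26, adjusted p = 0.0198). KO minus WT in control passed without background correction (-2.41) and with normexp (-2.12), and ranged from -4.95 to -3.40 with samples left out. With processed signals KO minus WT did not pass at day 2 (-6.81) or day 5 (-7.23), and at day 2 it ranged from -6.36 to -5.30 with samples left out, not passing without WT day 2 replicate 1 (-5.87) or KO day 2 replicate 2 (-5.67). The second probe's rise at day 2 in WT did not pass with any WT control or WT day 2 sample left out (1.72 to 1.93, adjusted p up to 0.104), nor with processed signals (1.91), slide as a block (1.83) or array as a random block (1.61), and at day 5 it did not pass with processed signals (2.43).

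*Tef* day 5 minus day 2 did not pass with array as a random block (-0.24) and ranged from -0.32 to -0.27 with samples left out, not passing without WT day 2 replicate 2, WT day 5 replicate 1 or 3, or KO day 5 replicate 1 or 3. *Dbp* at day 2 in KO passed under 5 of 14 other settings (adjusted p from 0.0345), and without KO control replicate 2 (1.03) or KO day 2 replicate 3 (0.96). The fourth *Tef* probe at day 5 passed with median foreground (-0.50) or dim probes filtered (-0.44), and without KO day 2 replicate 2 or 4 or KO day 5 replicate 2 (-0.51 to -0.44). Differences near 0 changed sign, namely KO minus WT of *Tef* with probes averaged (0.04), KO minus WT of *Hlf* with slide as a block (0.06; -0.11 to 0.07 with samples left out), *Hlf* at day 5 with array as a random block (0.03; -0.24 to 0.03) and at day 2 with samples left out (-0.23 to 0.03), and *Dbp* at day 5 (-0.04 to 0.18). With samples left out, 1 to 3 E-box factors and 0 to 1 output genes passed at day 5. Median foreground, loess and averaged probes each left 1 E-box factor at day 5, and averaged probes 1 output gene at day 2. The cause of these changes was not tested. Signal near background limits *Nfil3* in KO samples.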
